A study of Homo sapiens with 4 samples.

Results

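The genes described here lie along band 9p21 of chromosome 9 and run from FOCAD through the CDKN2A and CDKN2B locus to ELAVL2. They are the 10 rows of a table of 60675 gene rows whose gene names are FOCAD, IFNB1, KLHL9, IFNE, MTAP, CDKN2A, CDKN2B-AS1, CDKN2B, DMRTA1 and ELAVL2. The members were chosen by name with their low or high levels in these libraries already known, so the levels are given as a description and without a test. Of the 10 genes, 9 are protein-coding and CDKN2B-AS1 is an antisense long noncoding RNA.

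RNA was sequenced from HT1080, a line of human fibrosarcoma cells classed by its labels as connective tissue, with the genotype KDAC8 knockout. HDAC8 is the gene of KDAC8, an enzyme that removes acetyl groups from lysines. The 4 replicate libraries form 1 group, grown in medium with serum, and no library of parental cells was analysed here, so no effect of the knockout can be measured. Nothing in the labels says if the 4 came from separate cultures, separate clones or repeat preparations. A p-value across libraries thus asks if the samples differ by more than counting error, for reasons that may be technical. It depends on the number of counts as well as on the size of the spread.

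Total counts were 39454210 to 45828807 per library, and the level of a gene is its count relative to the effective size of the library, in CPM. The targeted gene, HDAC8, had 80, 89, 95 and 107 counts in replicates 1 to 4 (2.18 ± 0.242 CPM, SD, n = 4); a count per gene does not show whether a transcript is edited, so it does not check the label. Of the mesenchymal markers VIM, CD44, FN1, COL6A3 and PLAU, 5 of 5 reached 1 CPM in every library, with VIM at 4701 ± 283 CPM (SD, n = 4). The epithelial markers EPCAM, CDH1 and KRT5 had 0 counts in every library. No haematopoietic, endothelial or muscle marker reached 1 CPM, and 1 of 3 neural markers did (MAP2, 2.80 ± 0.303 CPM, SD, n = 4). In bulk RNA, fewer cells expressing a gene and less RNA per cell cannot be told apart.

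CDKN2A encodes unrelated proteins from a shared locus: p16INK4a, which blocks the cyclin D kinases CDK4 and CDK6, and p14ARF, which binds MDM2 and so protects p53. CDKN2B encodes p15INK4b, a close relative of p16INK4a, and CDKN2B-AS1 (also called ANRIL) is transcribed from the opposite strand and is known for binding Polycomb proteins. MTAP encodes the enzyme that breaks down methylthioadenosine, a by-product of polyamine synthesis, in the methionine salvage pathway, and when it is missing methylthioadenosine builds up and inhibits the arginine methyltransferase PRMT5. Loss of DNA across CDKN2A, often with MTAP, is common in tumours, and HT1080 is among the lines described as lacking it. DNA was not measured here. A locus that is absent from the genome and a locus that is present but not transcribed therefore cannot be told apart from these counts.

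The description of the locus as silent held for only some of its genes. CDKN2A, CDKN2B and IFNB1 had 0 counts in all 4 libraries, and ELAVL2 had 2 counts in replicate 2 and none elsewhere. The 6 other members had a count in every library. Detected means here that every library reached 1 CPM, and 3 of the 10 members met this: FOCAD, KLHL9 and DMRTA1. The same call was made for 58.8% of all protein-coding rows and for 60.8% of those on chromosome 9, and 15.0% of protein-coding rows had 0 counts in every library. Since the members were chosen with these levels known, nothing is read from the comparison.

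CDKN2A spans chr9:21967753-21995301 (GRCh38, minus strand; positions from GENCODE 29) with 4329 bases of annotated exon. CDKN2B lies at chr9:22002903-22009363 on the same strand with 4058 bases of exon in 2 blocks. Each had 0 counts in replicates 1, 2, 3 and 4, so no library was higher than another. A count of 0 allows up to 3 counts, which is a level of up to 0.0662 to 0.0742 CPM in a single library and of up to 0.0176 CPM over the 4 libraries together, for counting error only. Per kilobase of annotated exon, the level of KLHL9, the nearest detected protein-coding gene towards the end of the short arm, was at least 3904-fold higher than that of CDKN2A and at least 3659-fold higher than that of CDKN2B, taking 3 counts over the 4 libraries as the floor. DMRTA1, the nearest detected protein-coding gene on the other side, was at least 116-fold higher than CDKN2A and at least 109-fold higher than CDKN2B on the same scale. Exon lengths here join the exons of all annotated transcripts of a gene. A shorter transcript of CDKN2A or CDKN2B would give a smaller fold, so these limits hold for the joined lengths only.

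The sequences before the transcription starts are shown for both genes, with the start of KLHL9 for a detected gene on the same chromosome arm, because CpG pairs before a start are where DNA methylation is usually discussed at this locus. Methylation was not measured here. The windows are the 250 bases before each RefSeq start (GRCh38.p14), cut where an annotated protein-coding exon begins, and are written 5′ to 3′ on the minus strand with each CpG pair in capitals. That of CDKN2A is the outer start, used for p14ARF (chr9:21995325-21995574); that of CDKN2B covers chr9:22009364-22009555, and that of KLHL9 covers chr9:21335405-21335654.
CDKN2A: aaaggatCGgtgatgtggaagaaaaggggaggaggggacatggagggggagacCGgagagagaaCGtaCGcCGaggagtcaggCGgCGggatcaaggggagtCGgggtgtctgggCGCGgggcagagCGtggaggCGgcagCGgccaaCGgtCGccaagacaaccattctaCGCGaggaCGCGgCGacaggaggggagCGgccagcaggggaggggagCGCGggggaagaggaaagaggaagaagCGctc
CDKN2B: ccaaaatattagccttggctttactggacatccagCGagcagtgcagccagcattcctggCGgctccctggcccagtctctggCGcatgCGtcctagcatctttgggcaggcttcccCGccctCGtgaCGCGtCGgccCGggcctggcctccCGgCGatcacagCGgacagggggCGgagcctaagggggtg
KLHL9: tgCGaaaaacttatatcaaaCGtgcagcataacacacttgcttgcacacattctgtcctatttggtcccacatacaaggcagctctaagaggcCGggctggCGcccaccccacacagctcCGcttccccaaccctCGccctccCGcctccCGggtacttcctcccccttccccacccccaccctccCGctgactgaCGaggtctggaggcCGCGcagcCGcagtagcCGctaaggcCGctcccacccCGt

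The full window of 250 bases held 24 CpG pairs at the outer start of CDKN2A, 20 at its inner start, used for p16INK4a, 18 at CDKN2B and 16 at KLHL9. Over all 35114 such windows the median was 11. FOCAD, which was detected, had 35, more than in 94.2% of windows, and DMRTA1, also detected, had 13. IFNB1, at 0 counts, had 0 CpG pairs, and the 6 windows of ELAVL2 had 9 to 33. The numbers of the genes at 0 and of the detected genes thus overlapped, and a link of CpG pairs to level was not tested. CDKN2B-AS1 had 31, MTAP had 11 and IFNE had 2. All 10 members were matched to RefSeq windows by symbol, with 16 windows in all.

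MTAP (chr9:21802543-21937651, plus strand, 14617 bases of exon in 14 blocks) was counted in all 4 libraries at a low level. Its expected counts were 14.47, 15.83, 26.60 and 26.29 in replicates 1 to 4, or 0.358, 0.376, 0.587 and 0.622 CPM (0.486 ± 0.138 CPM, SD, n = 4). Replicates 3 and 4 were the higher ones, and the highest stood 1.74 times above the lowest. Its counts are not whole numbers, and its exons overlap those of another row, AL359922.1, with which the counting can share reads.

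AL359922.1 (ENSG00000264545, chr9:21802636-22032986, plus strand), given here by its GENCODE 29 name, is annotated as a protein-coding gene that joins MTAP to CDKN2B-AS1, although its transcript is classed as a target of nonsense-mediated decay. Of its 935 exonic bases in 6 exons, 460 in 4 exons also belong to MTAP, 475 in 2 exons also belong to CDKN2B-AS1, and 0 are its own. A read that lies within a single exon cannot tell it from MTAP or CDKN2B-AS1. The junctions are shown because they are what separates the 2 transcripts. Each sequence is the end of exon 4 in lower case (chr9:21818163-21818202) and the start of exon 5 in capitals, 40 bases from each, 5′ to 3′ on the plus strand, from the GRCh38 genome and GENCODE 29. In the MTAP transcript exon 5 begins at chr9:21837908-21837947, after an intron of 19705 bases, and in the AL359922.1 transcript it begins at chr9:22029433-22029472, after an intron of 211230 bases.
MTAP: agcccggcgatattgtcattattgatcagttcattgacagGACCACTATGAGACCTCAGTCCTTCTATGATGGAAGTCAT
AL359922.1: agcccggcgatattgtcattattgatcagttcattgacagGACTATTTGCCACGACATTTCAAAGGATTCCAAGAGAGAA

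The first 40 bases are the same in both, and 12 of the last 40 match by position. AL359922.1 was assigned 36.62, 23.13, 32.54 and 27.85 expected counts in replicates 1 to 4 (0.708 ± 0.149 CPM, SD, n = 4). Replicate 1 was its highest and replicate 2 its lowest library. Per kilobase of exon its level was 0.757, against 0.0332 for MTAP. The division of reads between the overlapping rows was made by the authors' counting and is uncertain, so their sum was also taken.

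MTAP and AL359922.1 together had 51.09, 38.96, 59.14 and 54.14 counts, or 1.19 ± 0.180 CPM (SD, n = 4). Within that sum MTAP held 28.3% in replicate 1, 40.6% in replicate 2, 45.0% in replicate 3 and 48.6% in replicate 4. The share thus differed between libraries, with replicate 1 the lowest and replicate 4 the highest. The sum of the pair was not a whole number in any library, so some reads may be divided with further rows as well. The table of counts per gene does not say whether any read crossed either junction.

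Between its exons 4 and 5, AL359922.1 passes over the stretch chr9:21818203-22029432. The deposited table has 8 rows that lie wholly within this stretch, and 8 of 8 were at 0 in every library: RP11-70L8.4, RP11-70L8.5, ERVFRD-3, CDKN2A-AS1, CDKN2A, RP11-149I2.4, CDKN2B and UBA52P6. Of all 60675 rows, 50.7% were at 0 in every library. ERVFRD-3 shares 684 exonic bases with MTAP on the same strand, and no count was assigned to it. The rows with counts on either side, MTAP and CDKN2B-AS1, each have exons both inside and outside this stretch, and counts per gene do not say which exons the reads came from.

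**Figure D1:**
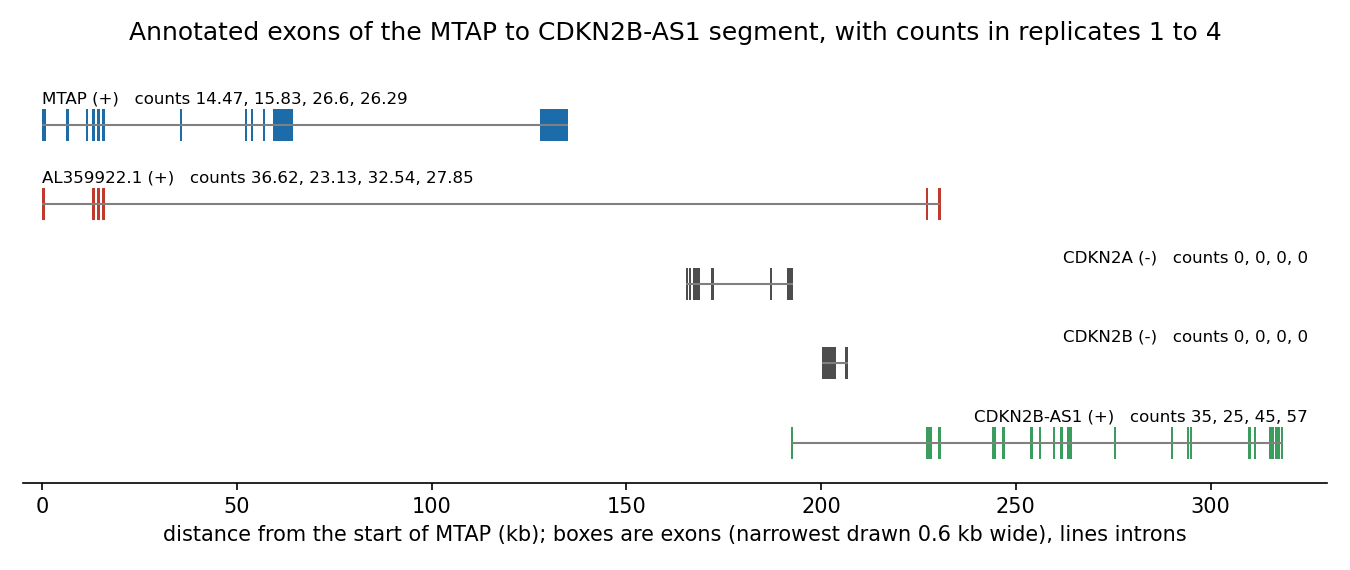
Map of annotated exons (boxes) and introns (lines) of MTAP, AL359922.1, CDKN2A, CDKN2B and CDKN2B-AS1 by distance from the start of MTAP in kb, with each row's counts in replicates 1 to 4. The 6 exons of AL359922.1 sit on exons of MTAP at one end and of CDKN2B-AS1 at the other, and CDKN2A and CDKN2B, at 0 counts, lie in the intron between them.

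CDKN2B-AS1 (chr9:21994778-22121097, plus strand, 8024 bases of exon in 22 blocks) had 35, 25, 45 and 57 counts in replicates 1 to 4, or 0.866, 0.594, 0.993 and 1.35 CPM (0.950 ± 0.313 CPM, SD, n = 4). It was the member nearest to being called detected, since 1 library passed 1 CPM and 3 did not. Replicate 4 stood 2.27 times above replicate 2. Its exons share 341 bases with those of CDKN2A on the opposite strand. Whether the counting used strand is not given in the sources used here, so reads from those bases could belong to either gene, although none was assigned to CDKN2A. The level of CDKN2B-AS1 is uncertain for the same reason as that of MTAP, since 475 of its bases are shared with AL359922.1, although its own counts were whole numbers in all 4 libraries.

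IFNB1 and IFNE belong to the type I interferon cluster of 9p, single-exon genes whose products act through the shared receptor IFNAR1 and IFNAR2. IFNB1, interferon beta, is switched on in many cell types by virus or nucleic acid sensors, whereas IFNE, interferon epsilon, is known for constitutive expression in reproductive tract epithelium. IFNB1 (chr9:21077105-21077963, minus strand, 859 bases) had 0 counts in replicates 1, 2, 3 and 4. KLHL9 was at least 775-fold higher than IFNB1 per kilobase of exon, with the floor of 3 counts over the 4 libraries.

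The window before the IFNB1 start is the one with the fewest CpG pairs among the members and is shown for that contrast with CDKN2A and CDKN2B. It covers chr9:21077964-21078192 (GRCh38.p14, RefSeq start, 5′ to 3′ on the minus strand), and the capitals mark the motif TATAAA, the TATA box.
IFNB1: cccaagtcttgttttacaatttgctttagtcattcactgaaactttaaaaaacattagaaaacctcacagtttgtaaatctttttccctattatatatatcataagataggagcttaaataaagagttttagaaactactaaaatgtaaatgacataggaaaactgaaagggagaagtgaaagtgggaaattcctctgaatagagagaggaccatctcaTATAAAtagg

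With both strands searched, TATAAA was found in 10.7% of all windows, each taken at its full 250 bases. The motif CCAAT, found in 11240 of the 35114 windows, and the GC box GGGCGG, found in 42.6%, do not occur in the full window of IFNB1. These matches are letters in the reference sequence and say nothing of binding in these cells. No CpG pair was present in the full 250 bases before the IFNB1 start.

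IFNE (chr9:21480839-21482313, minus strand, 1475 bases in 1 exon) was the one interferon gene of the cluster counted in every library. It had 24, 21, 25 and 28 counts, or 0.594, 0.499, 0.552 and 0.662 CPM (0.577 ± 0.0691 CPM, SD, n = 4). The 4 values lay close together, with the highest 1.33 times the lowest. IFNE lies within an intron of the noncoding gene MIR31HG, on the same strand and with 0 exonic bases in common, so unspliced MIR31HG reads could fall on it; that was not tested. MIR31HG itself had 44.18, 18.91, 29.96 and 40.72 counts and was lowest in replicate 2, as IFNE was, and highest in replicate 1.

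Across the listed type I interferon genes of 9p, 0 of 17 were detected and 13 were at 0 in all libraries. Over all protein-coding rows 58.8% were detected and 15.0% were at 0. Beside IFNE, counts were found for IFNK (0, 2, 4 and 5), IFNA1 (2, 0, 0 and 1) and IFNA13 (0, 0, 2 and 0). Those of the IFNA genes are uncertain, since the IFNA genes are close copies of each other. The receptor and signalling genes on other chromosomes were counted throughout: 9 of 9 were detected, among them JAK1, a kinase of the receptor, at 156 ± 5.50 CPM, the receptor chain IFNAR1 at 48.5 ± 2.39 CPM and, lowest, IRF7 at 1.38 ± 0.124 CPM (SD, n = 4).

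FOCAD and KLHL9, towards the end of the short arm, were the members with the highest levels. FOCAD (chr9:20658309-20995955, plus strand, 10036 bases of exon in 56 blocks) encodes focadhesin, a protein known for stabilising the SKI complex of mRNA decay. It had 2393, 2672, 2798 and 2741 counts, or 59.2, 63.4, 61.8 and 64.8 CPM (62.3 ± 2.43 CPM, SD, n = 4). Replicate 1 was the lowest, and the 4 libraries differed by at most 1.10 times.

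KLHL9 (chr9:21329671-21335380, minus strand, 5710 bases in 1 exon) encodes a substrate adaptor of the CUL3 ubiquitin ligase that acts on Aurora B in mitosis. It had 3931, 3939, 4018 and 3540 counts, or 97.2, 93.5, 88.7 and 83.7 CPM (90.8 ± 5.86 CPM, SD, n = 4). Replicate 1 was the highest and replicate 4 the lowest, 1.16 times apart. Per kilobase of exon, KLHL9 stood above 78.2% of detected protein-coding genes and FOCAD above 49.4%.

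DMRTA1 and ELAVL2 lie on the centromere side. DMRTA1 (chr9:22446841-22455740, plus strand, 5569 bases of exon in 2 blocks) encodes a DM-domain transcription factor. It had 94, 96, 113 and 145 counts, or 2.33, 2.28, 2.49 and 3.43 CPM (2.63 ± 0.540 CPM, SD, n = 4). Replicate 4 stood above the other 3, which lay close together. It was detected, but per kilobase of exon it was above only 4.60% of detected protein-coding genes.

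ELAVL2 (chr9:23690104-23826337, minus strand, 5140 bases of exon in 12 blocks) encodes HuB, an RNA-binding protein known from neurons. It had 0, 2, 0 and 0 counts, so 1 library carried all of it, at 0.0475 CPM, which is under the level that 3 counts give in that library (0.0712 CPM). The pattern of DMRTA1 and ELAVL2 was set beside their families. Of 6 other DMRT genes, 0 were detected and 5 were at 0 in every library, with a single count for DMRTA2. Over all protein-coding rows these shares were 58.8% and 15.0%. Of the 3 other ELAV genes, ELAVL1, which most tissues express, stood at 122 ± 4.88 CPM, ELAVL4 at 0.247 ± 0.0412 CPM and ELAVL3 at 0.0478 ± 0.0288 CPM (SD, n = 4).

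Ordered by level per kilobase of exon, KLHL9 came first with 15.9 ± 1.03 CPM per kilobase and FOCAD second with 6.21 ± 0.242 (SD, n = 4), and their libraries did not overlap. DMRTA1 followed at 0.473 ± 0.0969 CPM per kilobase and IFNE at 0.391 ± 0.0469 (SD, n = 4), and FOCAD was 13.1 times as high as DMRTA1. The ranges of DMRTA1 and IFNE overlapped, so their order is not settled by these libraries. CDKN2B-AS1 stood at 0.118 ± 0.0391 CPM per kilobase and MTAP at 0.0332 ± 0.00945 (SD, n = 4), with no overlap between them or with IFNE. Their order may depend on the uncertain division of reads. MTAP and AL359922.1 together stood at 0.0791 ± 0.0119 CPM per kilobase of their joint exons (SD, n = 4). That sum ran from 0.0613 to 0.0865, which overlaps the range of CDKN2B-AS1. It gives every count of AL359922.1 to MTAP, although 475 of the 935 bases of AL359922.1 are shared with CDKN2B-AS1. The same row was not added to CDKN2B-AS1, so the overlap holds for this way of dividing the reads only. ELAVL2 came next through its single library, and CDKN2A, CDKN2B and IFNB1 at 0 have no order among themselves. Among all protein-coding rows the median was 1.41 CPM per kilobase, and of the members only KLHL9 and FOCAD stood above it.

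**Figure D2:**
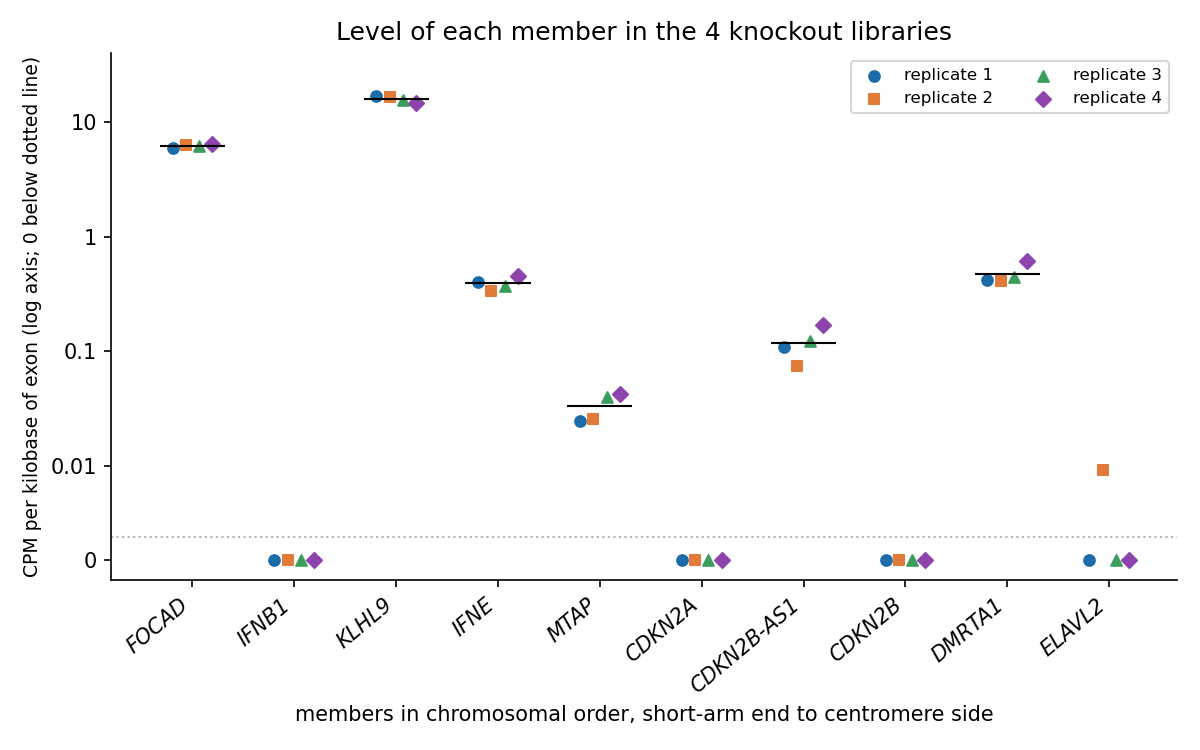
Level of each of the 10 genes in CPM per kilobase of exon (log axis, with 0 below the dotted line), in chromosomal order; each symbol is 1 library and each bar the mean of the 4. KLHL9 and FOCAD stand highest, DMRTA1 is the highest gene on the centromere side, and CDKN2A, CDKN2B and IFNB1 are at 0 in every library.

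Read along the chromosome, the run of protein-coding genes around CDKN2A that were not detected began at IFNA6 and ended at CDKN2B. It held 10 genes, of which 5 were at 0 in all libraries, and included IFNE, MTAP, CDKN2A and CDKN2B. The genes of the run cover 683 kb, up to the end of AL359922.1, which reaches beyond CDKN2B. KLHL9 and DMRTA1, the detected genes at its borders, were 1111 kb apart. The extent of the run rests on the detection level: at 0.5 CPM it shrank to 2 genes, CDKN2A and CDKN2B, because AL359922.1 passed that level in every library. At 1 CPM per kilobase of exon DMRTA1 (0.409 to 0.616) was not detected. The run then went on through DMRTA1, ELAVL2 and IZUMO3 up to TUSC1, and only FOCAD and KLHL9 of the members were detected. When long noncoding genes were counted as well, at 1 CPM, the run held 17 genes.

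Within 5 Mb of the start of CDKN2A, 14 of 42 protein-coding genes were detected (33.3%) and 16 were at 0, beside 60.8% detected on all of chromosome 9 and 15.0% at 0 over all protein-coding rows. On the side of the short-arm end 9 of 33 were detected, and on the centromere side 5 of 8. On the short-arm side 13 were at 0, all of them interferon genes, and no interferon gene there was detected. How much of the lower share detected in the window rests on that family was not tested. Detected genes on the short-arm side were CNTLN (22.6 CPM), RRAGA (52.5 CPM), HAUS6 (179 CPM), DENND4C (48.7 CPM), RPS6 (1225 CPM), ACER2 (1.26 CPM), MLLT3 (19.9 CPM), FOCAD and KLHL9, as means of 4 libraries. On the centromere side they were DMRTA1, TUSC1 (7.15 CPM), CAAP1 (28.2 CPM), PLAA (85.8 CPM) and IFT74 (15.9 CPM). Between DMRTA1 and TUSC1 no protein-coding gene was detected, and ELAVL2 lies in that gap.

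**Figure D3:**
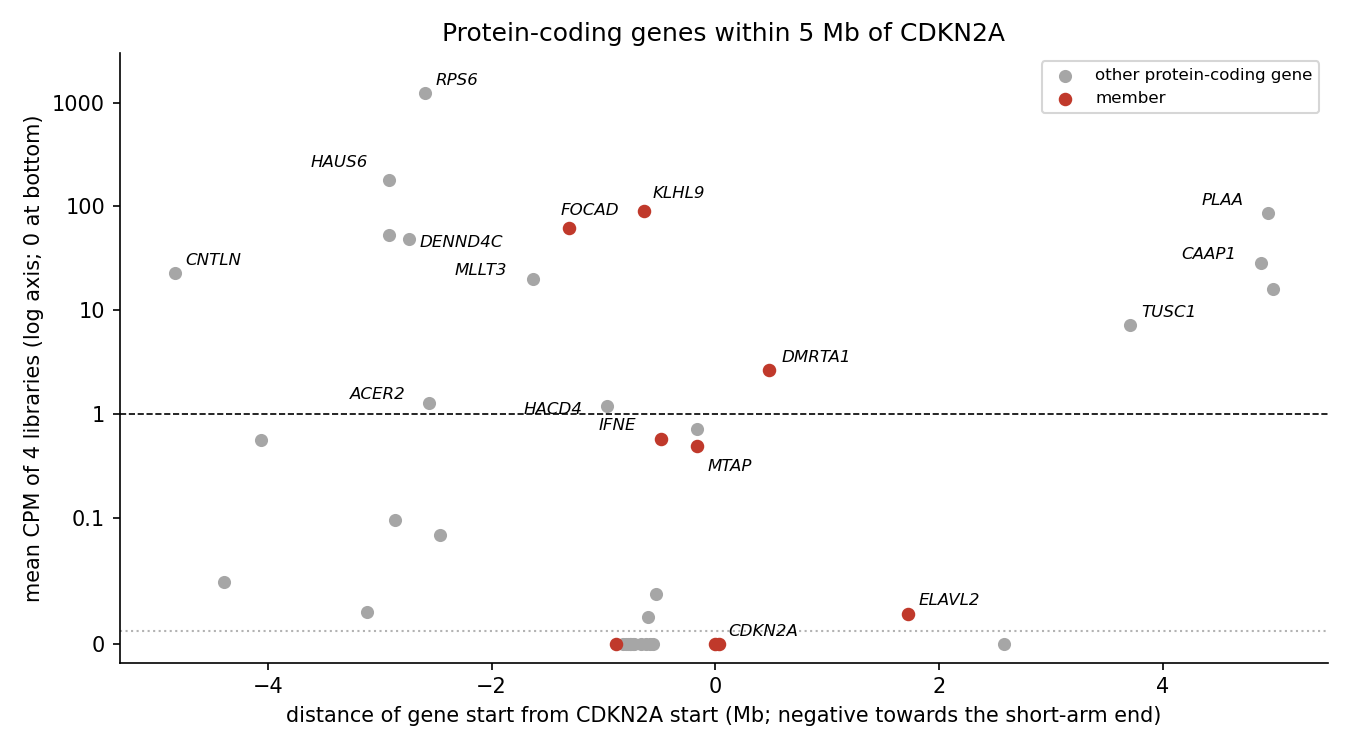
Mean level of the 4 libraries in CPM (log axis, with 0 at the bottom) of each protein-coding gene within 5 Mb of CDKN2A, by distance of its start from that of CDKN2A in Mb; members are red and the dashed line is 1 CPM. Genes above the line stand on both sides, and CDKN2A sits at 0 between KLHL9 and DMRTA1.

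Variation between libraries was tested for every gene with a mean of 10 or more counts by a chi-square test of homogeneity. The test allows for counting error only, so genes with high counts are called at small differences, and its p-values do not rank the spread. It called 59.2% of the 16790 genes tested and 64.4% of the protein-coding ones, at a Benjamini-Hochberg adjusted p under 0.05 over all of them. Of the members, 6 could be tested and 4 were called: KLHL9 (adjusted p = 1.75e-09), DMRTA1 (adjusted p = 0.00637), CDKN2B-AS1 (adjusted p = 0.00941) and FOCAD (adjusted p = 0.0164). IFNE (adjusted p = 0.817) and MTAP (adjusted p = 0.216) were not called. The members' share is near that of all genes, so it is not a result about them.

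The called differences were not of one size. FOCAD and KLHL9 spread by 1.10 and 1.16 times, below the median of 1.18 times for detected genes, with means of 2651 and 3857 counts. DMRTA1 spread from 2.28 to 3.43 CPM, and CDKN2B-AS1 by 2.27 times. KLHL9 kept its call without each library in turn, whereas DMRTA1 lost it without replicate 4 (adjusted p = 0.837). CDKN2B-AS1 lost it without replicate 2 (adjusted p = 0.175) or replicate 4 (adjusted p = 0.184), and FOCAD without replicate 1 (adjusted p = 0.278), replicate 2 (adjusted p = 0.0713) or replicate 4 (adjusted p = 0.0885).

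The low members DMRTA1, CDKN2B-AS1, MTAP and IFNE were each highest in replicate 4, and so was FOCAD among the high ones. MTAP and IFNE were not called as varying. MTAP and AL359922.1 together were highest in replicate 3, at 1.31 CPM against 1.28 CPM in replicate 4. Of all 5879 tested rows with a mean of 10 to under 200 counts, 44.8% were highest in replicate 4, against 17.1% to 19.1% in each of the others. Replicate 4 also had the most rows with a count, 25839 against 24569 to 25144. The part of this library in the members' differences was not tested. KLHL9 went the other way and was lowest in replicate 4.

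**Figure D4:**
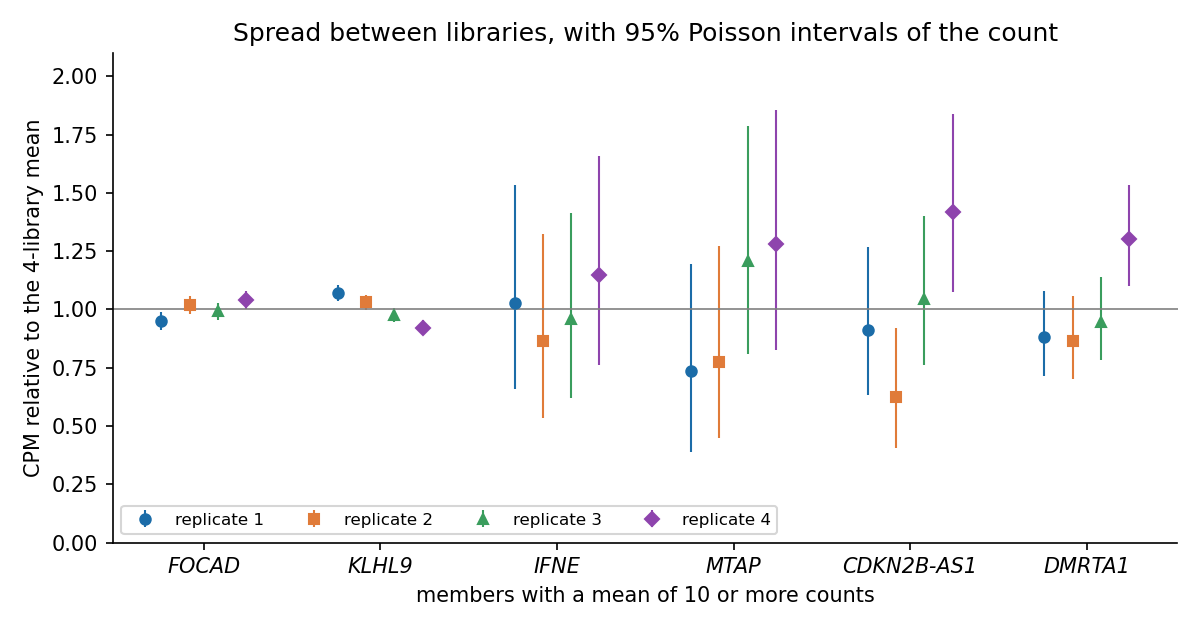
Level of each of the 6 tested members in each library relative to its mean of 4 libraries; lines are 95% Poisson intervals of the expected count, which cover counting error only. Replicate 4 is the highest library of FOCAD, IFNE, MTAP, CDKN2B-AS1 and DMRTA1 and the lowest of KLHL9, and the intervals of IFNE and of MTAP overlap throughout.

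The partners of the members at 0 were counted in all libraries. Of the CDK inhibitors and G1 control genes, 16 of 16 were detected, beside 58.8% of all protein-coding rows. Their median was 41.2 CPM against 6.76 CPM over all protein-coding rows. CCND1, which encodes cyclin D1, stood at 754 ± 10.9 CPM, and the kinases that p16INK4a and p15INK4b bind stood at 253 ± 32.7 CPM (CDK4) and 247 ± 15.7 CPM (CDK6), with CDKN1C lowest at 1.18 ± 0.0615 CPM (SD, n = 4). The remaining INK4 genes, named after their values were seen, were both detected, CDKN2C at 25.4 ± 1.53 CPM and CDKN2D at 7.46 ± 0.873 CPM (SD, n = 4). Of these 16 genes, 14 varied between libraries by the chi-square test, which called 64.4% of the protein-coding genes tested. That share is not matched for counts, so nothing is read from the difference here or in the lists below.

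In the p14ARF, MDM2 and p53 list 6 of 6 were detected, beside 58.8% of all protein-coding rows, and the median was 223 CPM. NPM1, a nucleolar partner of p14ARF, was highest at 1208 ± 86.4 CPM, followed by the ubiquitin ligases HUWE1 at 552 ± 34.0 CPM and MDM2 at 238 ± 8.14 CPM, and MDM4 was lowest at 99.7 ± 7.64 CPM (SD, n = 4). All 6 varied between libraries, a call made for 64.4% of protein-coding genes tested. Their mean counts were high, from 4236 (MDM4) to 51320 (NPM1), and their libraries differed by only 1.08 times (MDM2) to 1.18 times (NPM1). Of the Polycomb and related regulators known from work on the CDKN2A locus, 14 of 14 were detected and 8 varied, with 64.4% of all tested protein-coding genes varying. PHC2 stood at 226 ± 17.0 CPM, SUZ12 at 78.6 ± 5.33 CPM and CBX7 lowest at 3.88 ± 0.243 CPM (SD, n = 4). BMI1 lay between PHC2 and SUZ12, from 90.6 to 109 CPM over the 4 libraries.

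Around MTAP, 10 of 12 genes of methionine salvage and polyamine metabolism were detected, and the median was 47.3 CPM. The polyamine genes ODC1 (411 ± 42.9 CPM), SMS (196 ± 16.5 CPM) and AMD1 (146 ± 10.1 CPM) were highest, and PAOX, a polyamine oxidase, was lowest at 0.182 ± 0.0315 CPM (SD, n = 4). MRI1, whose product acts directly after MTAP and which was named after its value was seen, ranged from 30.9 to 37.5 CPM over the 4 libraries. Of the methionine cycle and PRMT5 genes 8 of 8 were detected and 8 varied, against 58.8% of protein-coding rows detected and 64.4% of tested protein-coding genes varying. MAT2A, which makes S-adenosylmethionine, stood at 214 ± 9.72 CPM, AHCY at 184 ± 15.6 CPM, CLNS1A at 130 ± 6.14 CPM and COPRS lowest at 25.6 ± 4.57 CPM (SD, n = 4).

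The partners of the detected members were mostly counted as well. The SKI complex genes were 3 of 3 detected, SKIC3 at 201 ± 10.9 CPM, SKIC2 at 66.2 ± 3.94 CPM and SKIC8 at 35.2 ± 3.27 CPM, beside FOCAD at 62.3 CPM. Among the KLHL9 partners 4 of 5 were detected: CUL3 stood at 110.4 ± 7.21 CPM, KLHL21 at 69.0 ± 3.39 CPM and the substrate AURKB at 46.7 ± 4.38 CPM (SD, n = 4). KLHL13, which works in the same complex, was lowest at 0.316 ± 0.177 CPM (SD, n = 4). Over all protein-coding rows 58.8% were detected. All lists were chosen with earlier results of these data known, so their counts describe the libraries.

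**Figure D5:**
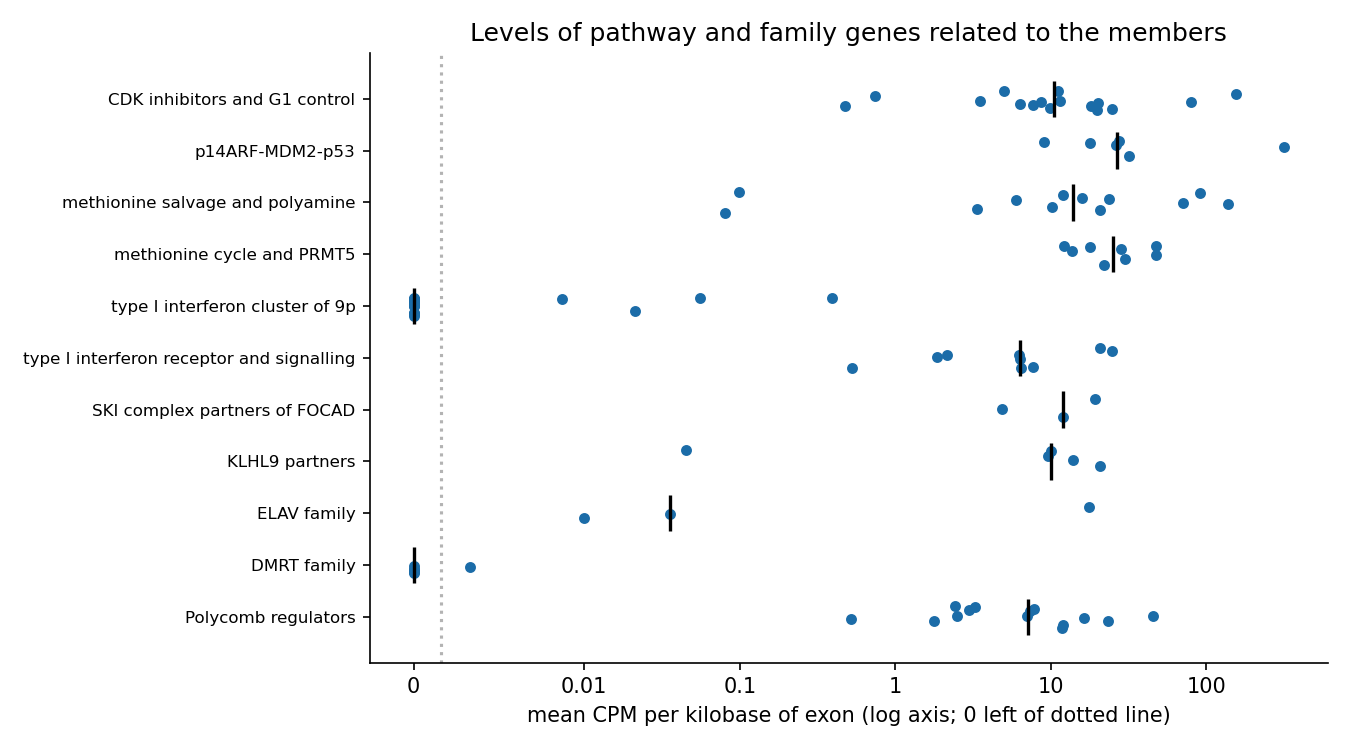
Mean level per kilobase of exon (log axis, with 0 left of the dotted line) of each gene in 11 lists of pathways and families around the members; each point is 1 gene and each bar the list's median. The interferon cluster and the DMRT family have a median of 0. The lists of partners of CDKN2A, MTAP, FOCAD and KLHL9 have medians between 10.0 and 26.7 CPM per kilobase, and the Polycomb regulators one of 7.18.

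For each detected member, the 2 protein-coding genes nearest to it in level over the 4 libraries were found by the Euclidean distance of log2(CPM + 0.01). FOCAD was nearest to TMEM185B (distance 0.05) and PLD3 (0.06), and KLHL9 to RAB6A (0.05) and PPP2CB (0.07). DMRTA1 was nearest to AGAP5 (0.13) and HIC1 (0.15), both of them highest in replicate 4 as DMRTA1 was. With 4 libraries of 1 group, nearness in this sense means a like level and a like order of libraries and nothing more.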

How the data were processed

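RNA was measured in 4 libraries of HT1080 cells with a KDAC8 knockout. Per the labels' protocols, total RNA from frozen pellets was depleted of ribosomal RNA and sequenced in paired-end mode. The submitters' processing notes name RSEM 1.3.3, Bowtie2 2.5.4, Trimmomatic 0.39, DESeq2 1.46.0 and the build GRCh38. Which annotation release, strand setting and filters were used is not given in the sources used here. Values deposited by the authors are expected counts per gene, a unit read from the values, which are not whole in 10.6% to 11.9% of cells; reads shared by overlapping rows are divided among them.

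Positions and exonic lengths came from GENCODE 29, which held 94.03% of the 60675 gene IDs, and promoter windows from RefSeq (GRCh38.p14). The release behind the table may differ. An exonic length joins the exons of all annotated transcripts of a gene. CPM used TMM effective library sizes (edgeR 4.0.16). The chi-square test (3 degrees of freedom, scipy 1.17.1) used counts rounded to whole numbers and library sizes as expectations, over all genes averaging at least 10 counts. It was tested on simulated counts whose unchanged genes held counting error only. That simulation does not cover any further spread between libraries. Counting intervals and floors (3 counts) leave out all but counting error. Whether amplified copies were counted as separate reads is not given in the sources used here. Alternatives were DESeq2 1.42.0 size factors, total counts, other detection levels and filters, and leaving out each library.

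The members and lists were chosen with earlier results of these data known. Named genes are the members, detected protein-coding genes within 5 Mb, the 3 highest and the lowest of each list, the 2 nearest genes of each detected member and rows overlapping a member; others are marked, and 1 gene that the rule names is not reported here. No per-sample column was left unused (0).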

Additional observations from a re-analysis of the deposited data

Results flagged for a closer look

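In 87 of the genes with levels given or listed, the highest or lowest library was checked for standing apart from the other 3 (Dixon's ratio of the gap to the range, at the 95% level). Chance alone flags about 1 in 20 groups of normally distributed values, and 6 genes passed. That rate does not hold for genes with few counts, since counts in a single library always give a ratio of 1. Among the 6 only CD44 had high counts. ELAVL2 had a ratio of 1, since its 2 counts were all in replicate 2. DMRTA2, of the same family as DMRTA1, had a ratio of 1 from a single count in replicate 2 (0.0237 CPM), and CD3E, a T-cell gene, had a ratio of 1 from 0.0442 CPM in replicate 3. IFNA13, of the interferon cluster, had a ratio of 1 from 2 counts in replicate 3. ACTC1, a muscle gene, had a ratio of 0.893 with 0 in replicate 4 and 0.0221 to 0.0247 CPM, a single count each, in the others. The mesenchymal marker CD44 had a ratio of 0.889 with 1432 CPM in replicate 2 against 1592 to 1612 CPM in the others.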

How the results depend on the processing

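Leaving out each library in turn gave 1 to 4 members called as varying, against 4 with all libraries. At a detection level of 0.5 CPM the run of undetected genes around CDKN2A held 2 genes, and with long noncoding genes included it held 17, against 10. The 54 other counts stayed within 1.5 times their main value, although DMRTA1 was not detected at 1 CPM per kilobase of exon. Mean levels of the 98 genes recomputed moved by no more than 1 SD under every scaling and left-out library tried. Leaving out 1 of 4 libraries can hardly move a mean further than that, and genes at 0 cannot move. That result is therefore no check of the levels against single libraries. Single calls of FOCAD, CDKN2B-AS1 and DMRTA1 were lost without some libraries. All genes varying numbered 7786 to 9376 with a library left out. Alternatives on the lists were chosen after seeing the data. No paired analysis was possible because the labels give 1 group. For the members at 0, depth allows a level of up to 0.0176 CPM.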

Other observations

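Between KLHL9 and DMRTA1 the deposited table has 32 rows, 20 of them at 0 in all libraries and 8 with a count in every library. Only RN7SL151P, a pseudogene of the signal recognition particle RNA, was detected, with 119, 139, 181 and 157.02 counts; reads from related copies could be assigned to it. The rows of that stretch summed to 313.09, 268.96, 376.14 and 369.16 counts, or 6.39 to 8.73 CPM. MIR31HG, the noncoding gene around IFNE, and IFNWP19, an overlapping pseudogene, together had 70, 34, 51 and 57 counts, of which MIR31HG was assigned 55.6% to 71.4%. TUBB8P1, a tubulin pseudogene within an intron of MTAP, had 11, 8, 13 and 15 counts. HACD4, between FOCAD and IFNB1, had 40, 43, 31 and 89 counts, from 0.684 to 2.11 CPM, with replicate 4 the highest. These rows, other than those that overlap a member, were named after their values were seen.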
